A study of Mus musculus with 4 samples.

Results

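A set of 6 mouse miRNA entries that have been studied little, mmu-miR-3473, mmu-miR-2137, mmu-miR-762, mmu-miR-711, mmu-miR-691 and mmu-miR-1902 (the species prefix is left out from here on), was followed in the hippocampus of mice that had learned a spatial task well or badly. The 6 probes were taken by name from the 705 miRNA probes of the array, because their intensity had differed between good and poor performers and they lie outside the families of the Sfmbt2 cluster (miR-669, miR-467, miR-466 and miR-297). All 6 were among the 316 probes bright enough to be tested. The contrast between good and poor performers therefore chose the members, and their values in it are given as a description. The mice were wild-type C57BL/6J, a common inbred laboratory strain, and every animal had been trained in the Morris water maze, in which a mouse learns the place of a hidden platform. Hippocampi were taken directly after training, and the labels give neither age nor sex of the animals. Good performers (labelled GLN) and poor performers (labelled PLN) had 4 mice and 2 arrays per group, each array carrying 1 Cy5-labelled sample. The labels do not say how the mice were divided over the arrays, so the spread between arrays may be technical. Hippocampal tissue holds many cell types, and fewer cells of a type and less RNA per cell cannot be told apart.

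miRNAs are short RNAs cut from hairpin precursors, and they lower the output of messenger RNAs by pairing with them through the seed, bases 2 to 8 from the 5′ end. In neurons they tune the local protein synthesis that accompanies synaptic change. Numbers in miRNA names follow the order of registration, so high numbers mark entries that were found late. Among the 6, miR-711 has been studied in neuronal death after brain injury in mice, and miR-3473b, a relative of miR-3473, in inflammation of the mouse brain. No role in the hippocampus is given here for the other 4.

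The mature sequences are shown because the 6 entries were grouped only by name, and their composition differs. They come from RefSeq (assembly GRCm38.p6), are written 5′ to 3′, and have the seed in capitals. All 6 names matched, with miR-3473 matched through its older name to the entry now called miR-3473a.
miR-3473: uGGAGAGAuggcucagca
miR-2137: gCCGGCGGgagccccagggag
miR-762: gGGGCUGGggccgggacagagc
miR-711: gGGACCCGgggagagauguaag
miR-691: aUUCCUGAagagaggcagaaaa
miR-1902: aGAGGUGCaguaggcaugacuu
miR-2137, miR-762 and miR-711 were rich in G and C and held a run of GGG. Their GC content was 85.7%, 81.8% and 63.6%, against a median of 52.2% over 1679 RefSeq mouse mature miRNAs, of which 30.6% held GGG on the strand of the miRNA. The other members had no GGG, with a GC content of 55.6% for miR-3473, 50% for miR-1902 and 40.9% for miR-691. The 6 seeds all differed from each other.

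All 6 hairpins lie within the span of a protein-coding gene in RefSeq. miR-691 (chr16:74342005-74342026, minus strand) lies in Robo2, a receptor for Slit proteins in axon guidance, and miR-1902 (chr2:104428871-104428892, minus strand) in Hipk3, a protein kinase. miR-711 (chr9:108969970-108969991, plus strand) lies in Col7a1, the collagen of the anchoring fibrils of skin. miR-2137 (chrX:72992113-72992133, plus strand) lies in Zfp185. These 4 run on the same strand as the gene around them. miR-762 (chr7:127708534-127708555, plus strand) runs opposite to Bcl7c, which encodes a subunit of a chromatin-remodelling complex. miR-3473a (chrX:162874920-162874937, minus strand) lies within Syap1, whose strand was not available here, so their strands were not compared. Whether a hairpin is in an exon or an intron was not analysed here, and the array did not measure the genes around them.

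miR-3473 belongs to a group with 7 hairpins of that number in RefSeq, while the array held 1 probe of that number. The relatives with the longest stretches shared with miR-3473a are shown, with the shared stretch in capitals.
miR-3473b: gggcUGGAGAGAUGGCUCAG
miR-3473e: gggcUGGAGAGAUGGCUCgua
The shared stretch was 16 bases in miR-3473b and 14 in miR-3473e, of the 18 bases of miR-3473a. In miR-3473f, not shown, it was 10 bases. Probe sequences were not used here, so how far these relatives add to the signal of the miR-3473 probe was not tested. Within the set, the longest shared stretch was 9 bases, GGAGAGAUG, at bases 2 to 10 of miR-3473a and bases 10 to 18 of miR-711. Those 2 probes had differences of opposite sign. The seed of miR-3473 was also that of miR-882, a tested probe with a raw intensity of 154 in good and 138.5 in poor performers. Its log2 difference of 0.14 did not pass the test across all probes (limma adjusted p = 0.183).

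The arrays were alike in depth. Between 310 and 330 miRNA probes were detected per array, blank spots averaged 63.0 to 64.4, and 3 miRNA probes per array held a saturated spot, none of them a member. All 6 neuronal markers were tested, with miR-124 at a raw intensity of 20431 to 23072 and miR-134 at only 1.25 times the blank level. Of 6 markers of other organs, miR-122, miR-208a and miR-375 had no spot at the detected flag. The others, miR-1, miR-133a and miR-206, were tested too and lay at 1.18 to 1.56 times the blank level, a range that includes miR-134. Of 16 markers of astrocytes, oligodendrocytes, microglia, blood, vessels and choroid plexus, 13 were tested, while the microglial miR-223 and the choroid plexus miR-449a had no spot at the detected flag. The blood marker miR-144, also not tested, had 1 such spot. Its raw intensity was 219 on the second poor-performer array and 58 to 64 on the others. Of the 13 tested markers the oligodendrocyte miR-219 alone passed, with a log2 difference of -0.27. The raw intensities of the oligodendrocyte markers miR-219 and miR-338-3p summed to 986 and 993 in good and 1051 and 1079.7 in poor performers. The gap in the sum lay in miR-219, at 656 and 675 in good and 732 and 755 in poor performers. In raw intensity miR-338-3p did not share it, at 330 and 318 in good and 318 and 324 in poor performers. After normalization the log2 difference of miR-338-3p was -0.07, in the same direction as miR-219, and did not pass. The part of oligodendrocytes in the results below was not tested. The 5 spike-in controls, RNA added in fixed amounts, were 0.05 to 0.26 log2 units higher in good performers before normalization.

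miR-3473 was the 1 member that was higher in good performers, and the brightest. Its raw intensity, the mean of 3 spots, was 20770 and 20581 on the good-performer arrays and 14792 and 15111 on the poor-performer arrays. The 2 groups did not overlap at any spot, the lowest good spot being 19781 and the highest poor spot 15973. After normalization the log2 intensity was 14.18 ± 0.012 (SD, n = 2 arrays) for good and 13.97 ± 0.020 (SD, n = 2 arrays) for poor performers, a difference of 0.21 ± 0.03 (SE of limma). The difference was 0.47 before normalization and 0.34 with each array scaled to its 75th percentile, while the median of the 3 spots in place of their mean gave 0.14. Few probes are as bright as miR-3473: it stood 12th, 12th, 13th and 12th on the 4 arrays, and quantile normalization gives each rank a shared value. The brightest spike-in control, at a raw intensity of 31356 in good and 26154 in poor performers, differed by 0.26 before normalization, and spike-in control 2, at 19632 and 17930, by 0.13. Both probes for U2 small nuclear RNA, a part of the splicing machinery, were higher in good performers before normalization by 0.52 and 0.46, about as much as miR-3473. They were the highest of 11 small nuclear RNA control probes, which ran from 0.04 to 0.52. Among these a U6 probe, at a raw intensity of 25938 in good and 24134 in poor performers, differed by 0.11. The part of labelling or scanning in these values was not tested.

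miR-2137 had the largest difference of the 6. Its raw intensity was 1531 and 1529.7 on the good-performer arrays and 2149.7 and 1957 on the poor-performer arrays. Good spots ran from 1479 to 1620 and poor spots from 1906 to 2237, so the groups were apart at every spot. The normalized log2 intensity was 10.52 ± 0.045 (SD, n = 2 arrays) for good and 11.02 ± 0.071 (SD, n = 2 arrays) for poor performers. The difference was -0.50 ± 0.05 (SE of limma), or 1.41-fold, and among the 316 tested probes 1 had a lower value. The nearest arrays of the 2 groups were 0.42 apart, while the arrays within a group were 0.06 and 0.10 apart.

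miR-762, the other member with a GC content past that of 98.9% of RefSeq mature miRNAs, was also lower in good performers. Its raw intensity was 3367 and 3732 in good and 4476 and 4166 in poor performers. Its 3 spots agreed less well than those of the other members, with a coefficient of variation of 7.70% to 12.3% per array, against a median of 5.6% over tested probes. One spot position was the brightest on all 4 arrays, and good spots (3082 to 4178) overlapped poor spots (3888 to 5111) when positions were pooled. Position by position the groups did not overlap. The normalized log2 intensity was 11.78 ± 0.020 (SD, n = 2 arrays) for good and 12.04 ± 0.048 (SD, n = 2 arrays) for poor performers, a difference of -0.26 ± 0.04 (SE of limma). With 75th percentile scaling the difference was -0.42, and with spike-in scaling -0.43.

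miR-711 had the smallest difference. Its raw intensity was 299 and 309 in good and 328 and 337 in poor performers, or 4.74 to 5.28 times the blank level. Good spots ran from 293 to 316 and poor spots from 309 to 346, and at 1 of the 3 spot positions the groups overlapped. The normalized log2 intensity was 8.22 ± 0.024 (SD, n = 2 arrays) for good and 8.43 ± 0.015 (SD, n = 2 arrays) for poor performers, a difference of -0.21 ± 0.03 (SE of limma). Before normalization the difference was -0.13.

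miR-691 was the dimmest member, at 2.29 to 2.76 times the blank level. Its raw intensity was 147 on both good-performer arrays and 172 and 176 on the poor-performer arrays. The groups were apart at every spot, from 140 to 151 in good and from 169 to 181 in poor performers. The normalized log2 intensity was 7.20 ± 0.039 (SD, n = 2 arrays) for good and 7.47 ± 0.0083 (SD, n = 2 arrays) for poor performers, a difference of -0.27 ± 0.03 (SE of limma). So near to the background the offset of the correction sets the size: the difference was -0.14 with an offset of 200 and -0.38 with an offset of 1.

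The widest log2 gap between arrays of 1 group was that of miR-1902, at 0.102, against 0.100 for miR-2137, which had the larger SE. The raw intensity of miR-1902 was 267 and 299.7 in good and 313 and 332 in poor performers. In raw intensity its good-performer arrays were thus further apart than the nearest arrays of the 2 groups. Pooled over positions, good spots (264 to 312) overlapped poor spots (306 to 346), but at each spot position the groups did not overlap. The normalized log2 intensity was 8.13 ± 0.072 (SD, n = 2 arrays) for good and 8.39 ± 0.014 (SD, n = 2 arrays) for poor performers, a difference of -0.26 ± 0.05 (SE of limma). On the log2 scale the nearest arrays of the 2 groups were 0.20 apart, and the good-performer arrays 0.10 apart.

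**Figure D1:**
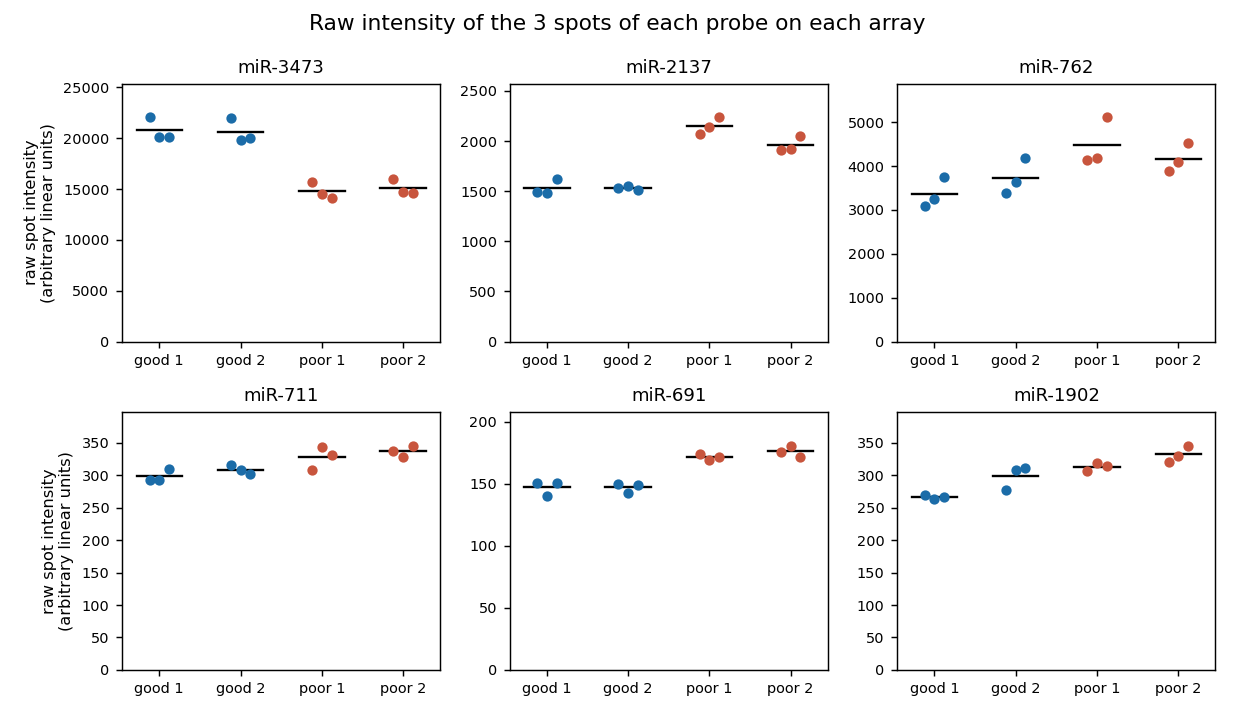
Raw intensity (linear, arbitrary units) of the 3 spots of each of the 6 probes on the 4 arrays, with good performers in blue and poor performers in red; points are spots and black lines are array means. miR-3473, miR-2137 and miR-691 separate the groups at every spot, while spots of miR-762, miR-711 and miR-1902 overlap when positions are pooled.

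The ranks, which no scaling of a whole array changes, moved the same way as the intensities for the 5 lower members. Rank 1 is the brightest of the 705 probes, and it orders brightness, not abundance, since probes differ in how well they bind. miR-2137 stood 35th on both good-performer arrays and 26th and 28th on the poor-performer arrays. miR-762 stood 21st in good and 19th in poor performers on both arrays. miR-711 stood at 105 and 101 in good against 91 and 93 in poor performers, and miR-1902 at 112 and 107 against 95 and 94. miR-691 stood at 166 and 172 against 144 and 147.5.

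**Figure D2:**
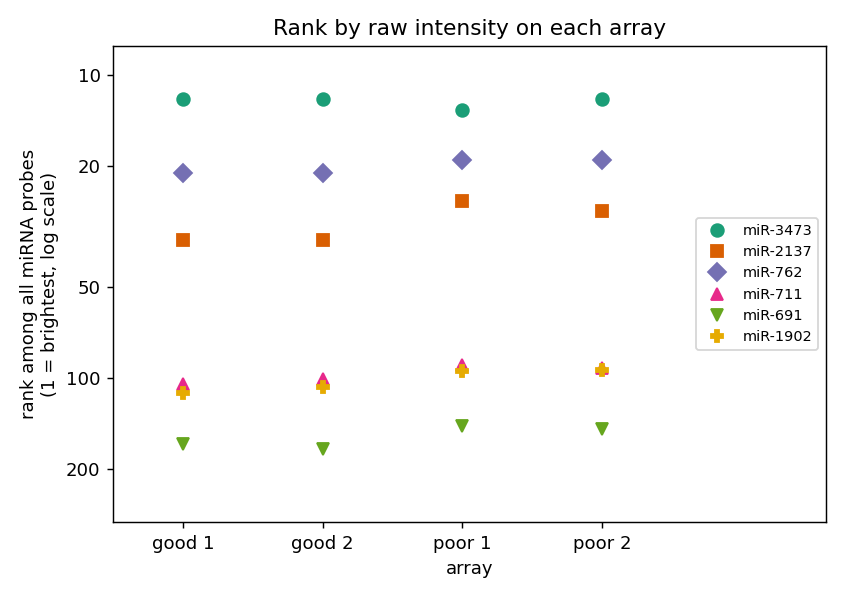
Rank of each of the 6 probes among 705 miRNA probes by raw intensity on each array (log axis, 1 is the brightest, brighter probes at the top). The 5 members below miR-3473 rank closer to the top on both poor-performer arrays, and miR-3473 stays at rank 12 or 13.

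In the fit across all 316 probes (limma, adjusted p under 0.05), 5 of the 6 members passed, 1 of them higher and 4 lower in good performers. Among all tested probes 5.06% passed, 3.16% higher and 1.9% lower. Since the members were chosen on this contrast, nothing is read from their count. The last probes inside the threshold were miR-762 and miR-711 (log2 differences of -0.26 and -0.21). The first outside were the miR-297 probe (0.36) and miR-1902 (-0.26), which had a larger difference than miR-711 and a wider spread. The 2 groups did not overlap in 6 of 6 members, against 50.6% of tested probes (23.1% higher and 27.5% lower). At all 3 spot positions of the raw data they did not overlap in 5 of 6 members, miR-711 being the exception, against 19.6% of tested probes (15.8% higher and 3.8% lower). No probe, member or other, passed with any 1 of the 4 arrays left out, where 40 to 59 probes had an unadjusted p under 0.05.

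**Figure D3:**
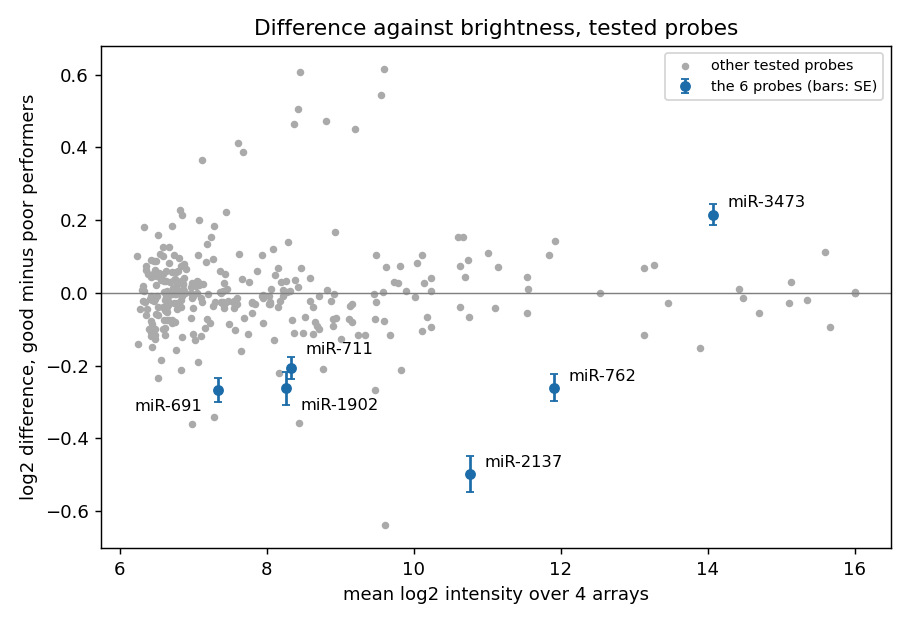
Log2 difference (good minus poor performers) against mean log2 intensity over 4 arrays for the 316 tested probes, with the 6 members in blue and their SE as bars. The members lie from the middle of the brightness range upward, from miR-691 near the median of 7.35 to miR-3473 at 14.07, and miR-2137 lies next to the lower edge.

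Whole-array scaling moved the size of these differences and not their sign. The median of all tested probes was -0.0072 as reported, 0.03 without normalization, -0.10 with 75th percentile scaling and -0.11 with scaling to the spike-in controls. The split of 10 probes higher to 6 lower became 12 to 3, 11 to 55 and 10 to 21 with these scalings, 14 to 10 with cyclic loess and 6 to 31 in the authors' normalized table. Relative to the median of all tested probes, miR-3473 was at 0.22 as reported and at 0.44 without normalization. The 75th percentile and spike-in scalings shift a whole array by 1 constant, so their relative values equal those without normalization by construction. Relative values as reported and without normalization were -0.49 and -0.45 for miR-2137, and -0.25 and -0.32 for miR-762. They were -0.26 and -0.28 for miR-691, -0.26 and -0.23 for miR-1902, and -0.20 and -0.17 for miR-711. The authors' deposited table gave miR-3473 a log2 ratio, good over poor performers, of 0.33, the 9th highest of 383, and miR-2137 one of -0.55, the 2nd lowest. In the same deposited table by the authors the ratios were -0.39 for miR-762, -0.33 for miR-691, -0.27 for miR-711 and -0.27 for miR-1902, with a median of -0.08 over the table. In the authors' deposited table miR-3473, miR-2137 and miR-762 each had exactly the same normalized intensity on both good-performer arrays (19226, 1448 and 3304), although the raw values differed. The same held for 49 of its 383 probes on the good-performer arrays and for 0 on the poor-performer arrays, so for these 3 probes the authors' values give no spread between good-performer arrays.

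**Figure D4:**
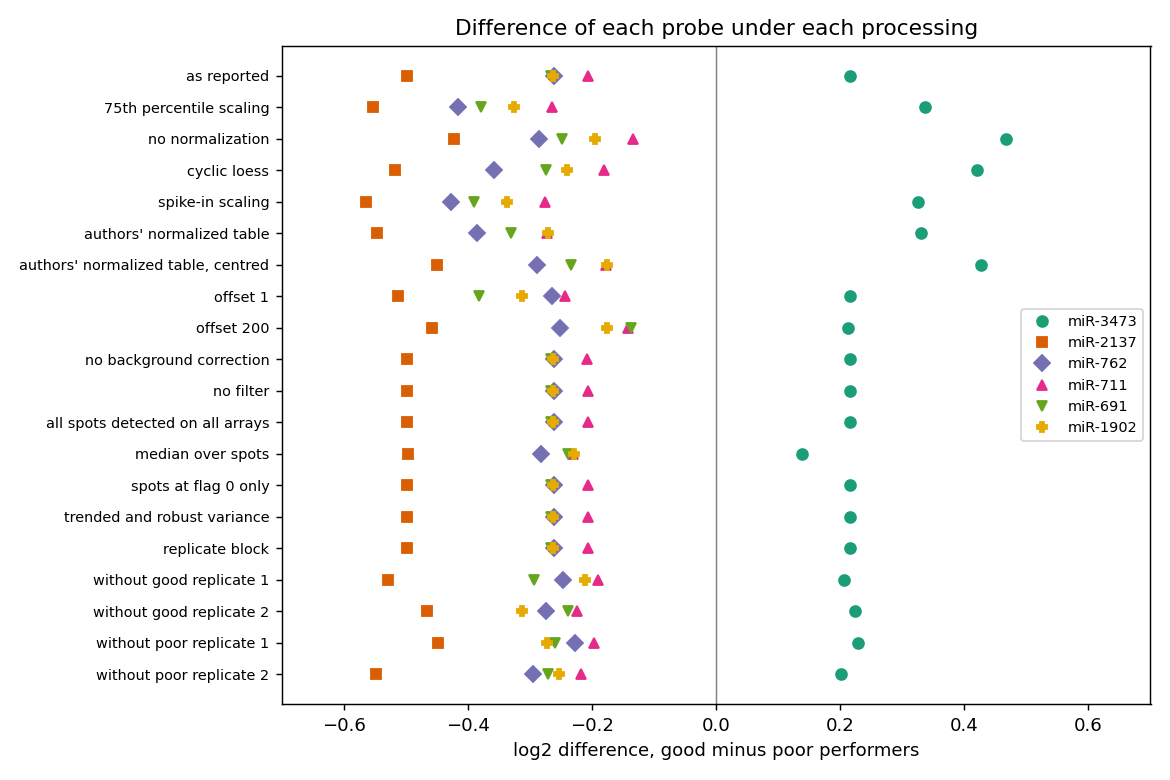
Log2 difference (good minus poor performers) of each of the 6 probes under the reported processing, 15 alternatives with all arrays and 4 fits without 1 array. miR-3473 stays above 0 and ranges from 0.14 to 0.47, and the other 5 stay below 0, with miR-2137 between -0.57 and -0.42.

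For scale, the 2 other tested probes nearest to each member in brightness are given. Since the members were chosen for their difference and these were not, nothing is read from the gap between them. Beside miR-3473 lay miR-2138 and the neuronal miR-124, with log2 differences of -0.15 and 0.01. Beside miR-2137 lay miR-1274a at -0.07 and the activity-induced miR-132 at 0.09, and beside miR-762 lay miR-128 at 0.14 and miR-29a at 0.10. The neighbours of miR-711 were miR-378 at 0.0060 and miR-338-3p at -0.07, those of miR-691 were miR-26b at 0.0016 and miR-212 at 0.06, and those of miR-1902 were miR-320 at 0.03 and miR-1899 at 0.0017. None of these 12 passed the test (limma).

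The patterns over the 4 arrays were then compared after subtracting each probe's mean, as a distance in log2 units. Members and saturated probes were left out as candidates. The other tested probe most like miR-691 was miR-219, which promotes the maturation of oligodendrocytes, at a distance of 0.02, followed by miR-665 at 0.06. Outside the set, miR-219 was also nearest to miR-762 (0.06, followed by miR-1896 at 0.09) and second to miR-711 (0.08, after miR-2138 at 0.07) and miR-1902 (0.10, after miR-574-5p at 0.06). miR-2137 lay closest to miR-2133 (0.16) and miR-1939 (0.19), and miR-3473 to miR-1895 (0.05) and miR-464 (0.06). Among the members miR-762, miR-711, miR-691 and miR-1902 lay within 0.06 to 0.11 of each other, while miR-2137 was 0.24 or more from each. These distances rest on 4 arrays and mostly reflect the same difference between groups.

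Other late-numbered and other G-rich entries were described as lists, with no test of a list. Of 211 further probes with a miRNA number of 670 or higher (outside the Sfmbt2 cluster families), 83 were tested and 1 passed, miR-2133, lower in good performers by 0.64 log2 units (limma). Their median difference was -0.02, against -0.0072 over all tested probes, and 18 had an unadjusted p under 0.05, 5 higher and 13 lower, as did 66 of all 316 tested probes, 32 higher and 34 lower. The 3 brightest, miR-690, miR-709 and miR-2145, held saturated spots and are not read. Sequences could be matched by exact name for 76 of the 316 tested probes (24.1%), and for 29 of the 83 late-numbered ones, so a check of GC content is void over both. Within the matched probes, 14 further entries with at least 65% GC had a median of -0.02 and 25 further entries with GGG a median of -0.04. The median over all 71 matched probes without the members was -0.02. Of the 25 entries with GGG, 19 had the lower mean in good performers, as did 43 of those 71 and 170 of all 316 tested probes. None of the GC-rich or GGG entries passed (limma). An unadjusted p under 0.05 was found for 3 of the GC-rich entries, 1 higher and 2 lower, and for 4 of those with GGG, all lower. It was found for 16 of the 71, 9 higher and 7 lower. The brightest of the GC-rich entries were miR-705 at 0.08, miR-1895 at 0.17 and miR-207 at 0.02, and the brightest with GGG beside miR-705 were miR-1894-3p at -0.04 and miR-1892 at 0.03. The 39 matched probes with neither feature, which include Sfmbt2 cluster families, had a median of -0.0015. Of these miR-467f and miR-467g passed, both higher in good performers, and 10 had an unadjusted p under 0.05, 8 higher and 2 lower.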

How the data were processed

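Cy5-labelled small RNA from 2.5 µg of total hippocampal RNA was measured on 4 arrays, 1 sample each, per the labels' protocols. The deposited raw intensity is unnormalized spot brightness, per the file headers, with a flag of 0 or -50 per spot as another deposited column. The authors' normalized intensity and log2 ratio (good over poor) for 383 probes came in a second deposited table, and the series value table repeats it. No source used here gives its normalization.

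Raw intensity was corrected with normexp (limma 3.58.1, R 4.3.3, offset 50), taken to log2, quantile-normalized across arrays over 2115 miRNA spots and summarised as the mean of a probe's 3 spots. A probe was tested with at least 2 spots at flag 0 on both arrays of a group. Groups were compared with lmFit and eBayes, two-sided, with Benjamini-Hochberg adjustment over 316 probes and a threshold of 0.05. The fit was tested on simulated data. A larger offset gave smaller log2 differences for the dim members miR-691, miR-711 and miR-1902, and their true size is not known. The number of arrays limits precision.

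The members, the lists and the tests were chosen with earlier results of these data known. Names in the text followed a rule: the members, the 2 tested probes most like each in pattern (members and saturated probes left out) and nearest in brightness, the edges of the threshold, probes sharing a seed, and the 3 brightest of each list. miR-2133, miR-467f, miR-467g, the named U1, U2, U6 and U8 controls and the spike-in controls were added after their values were seen. Deviations of arrays with the same number had a correlation of 0.18; with only 2 pairs, the numbers do not establish a pairing.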

Additional observations from a re-analysis of the deposited data

How the results depend on the processing

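All 6 members kept the sign of their difference in 15 alternatives and in the 4 fits without 1 array. The 16 probes past the threshold became 66 with 75th percentile scaling, 31 with spike-in scaling, 37 in the authors' normalized table, 30 when eBayes was trended and robust, 6 with the median over spots, 7 with offset 1, and 0 to 0 without 1 array. The 5 members past it became 3 without normalization (miR-762 and miR-711 lost), 0 with offset 1, likewise 0 when spots were summarised by their median, and 0 to 0 without 1 array. In the last 3 of these, 6, 5 and 6 of the 6 had an unadjusted p under 0.05 (limma). A block for the replicate number left 13 probes and 1 member, miR-2137, with fewer residual degrees of freedom. A single remaining array was taken to vary as the group of 2 did. What caused the remaining changes was not tested. miR-1902 passed in 4 of the 15 alternatives: 75th percentile scaling, cyclic loess, spike-in scaling and trended, robust eBayes. Member differences without 1 array ran from 0.20 to 0.23 for miR-3473, -0.55 to -0.45 for miR-2137, -0.30 to -0.23 for miR-762, -0.22 to -0.19 for miR-711, -0.29 to -0.24 for miR-691 and -0.31 to -0.21 for miR-1902. Among the members miR-691 lay nearest to background, and the offset moved the size of its difference most. It passed in 12 of the 15 alternatives, as did miR-3473, with 13 for miR-2137, 11 for miR-762 and 9 for miR-711. A permutation of 4 arrays could not reach the threshold.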
